A study of Mus musculus with 24 samples.

Results

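The 8 genes described here encode the contractile machinery of smooth muscle. They are *Acta2*, *Actg2*, *Myh11*, *Mylk*, *Tagln*, *Cnn1*, *Lmod1* and *Des*, and they were found by their symbols among the 24456 gene rows of each count table. Testis RNA-seq had been made from wild-type mice (WT) and from mice homozygous for a knockout of *Atad2* (KO) on days 20, 22, 24 and 26 after birth, and the study asked how loss of the chromatin factor ATAD2 alters transcription as the first wave of germ cells leaves meiosis. There were 4 WT and 4 KO libraries on each of days 20 and 22 and 2 of each genotype on days 24 and 26, 24 in all, and a name such as WT_d20_2 gives a library's genotype, day and number. The KO allele carries a *lacZ* trapping cassette and was made by crossing to a line that expresses Cre from the ubiquitous CMV promoter, which removed the *neo* cassette and an exon and left the upstream exons of *Atad2* fused to β-galactosidase. The deletion is therefore present in every cell of the animal, smooth muscle included. No treatment was given to either genotype. The labels give testis as source and tissue, while their extraction text also mentions purified spermatogenic cell fractions. Markers of Sertoli cells, somatic cells of the tubule, summed to between 1499 and 3156 CPM (the unit of a count after all libraries are brought to 1 size) over the 24 libraries, and the samples were read as testis. Which cells the 8 messages came from was not measured. How many animals stand behind a library is not given in the sources used here, and p-values measure the spread between libraries.

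In the testis, smooth muscle proteins mark the flattened peritubular myoid cells that wrap the seminiferous tubules, and also the mural cells of arteries and veins and the muscle of the epididymal duct. Peritubular myoid cells contract to move fluid and spermatozoa along the tubule and lay down the basement membrane together with Sertoli cells. Contraction follows when calcium and calmodulin activate myosin light chain kinase, which phosphorylates the myosin light chain and lets myosin pull on actin. Transcription of these genes is classically driven by serum response factor bound to CArG boxes, with myocardin family co-activators, and by TEAD factors bound to M-CAT elements.

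The tables held between 10709667 assigned read pairs in WT_d20_2 and 19491935 in WT_d22_4. *Atad2* itself stood at 76.1 to 171 CPM in the WT libraries and 30.8 to 53.0 CPM in the KO libraries, without overlap on any day. A list of epididymal genes was above 100 CPM in 7 libraries, namely WT_d20_3, WT_d22_4, WT_d24_2, WT_d26_2, KO_d22_1, KO_d24_2 and KO_d26_2. *Crisp1*, a secreted protein of the epididymal duct, made up 73.9% of that list. Those of WT held 283 to 757 CPM of the list and those of KO 139 to 197 CPM. The WT group mean was above that of KO on each day, at 76.3, 146, 391 and 345 against 22.3, 47.1, 120 and 134 CPM. The part of this imbalance in the genotype differences was not tested. WT_d20_2 stood apart in 13.7% of its pairs aligning to several places, the highest share of all libraries. KO_d22_4 had the lowest such share, 4.74%, and was the lowest of its group in endothelial, Leydig, macrophage and fibroblast markers. Calls of the 8 genes and of the smooth muscle, peritubular and mural lists are given with and without the 7 libraries with epididymal RNA, a fit that leaves days 24 and 26 with 1 library per genotype and takes each to vary like the other groups. Markers of striated muscle were low, at 11.5 to 34.2 CPM for the summed list, and 7 of its 13 genes, *Ckm*, *Mb*, *Actc1* and *Tnnt3* among them, did not reach the count minimum of the test.

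All 8 genes were placed on build mm10. *Acta2* lies on chr19:34241090-34255590, *Myh11* on chr16:14194535-14291372, *Tagln* on chr9:45929619-45936058 and *Actg2* on chr6:83512905-83536265, all on the minus strand. *Mylk* lies on chr16:34745210-35002420, *Cnn1* on chr9:22099216-22109630, *Lmod1* on chr1:135324807-135368065 and *Des* on chr1:75360329-75368579, all on the plus strand. No exon of another gene overlaps any of them on the same strand, and the counting used the strand. Promoter sequence, from 250 bases before to 50 bases after the start, was available from RefSeq on build GRCm38.p6 for 5 of the 8 genes. *Myh11*, *Tagln* and *Actg2* were not listed. The windows were searched on both strands for the CArG box, for a CArG box with at most 1 core base off and for CATTCC, the core of the M-CAT element, which is printed as its reverse complement where it lies on the other strand. *Acta2* is shown because its window holds 2 near-CArG boxes, and *Mylk* and *Lmod1* because theirs hold the M-CAT core. Matches are in capitals, 5′ to 3′ along the gene's strand.
Acta2: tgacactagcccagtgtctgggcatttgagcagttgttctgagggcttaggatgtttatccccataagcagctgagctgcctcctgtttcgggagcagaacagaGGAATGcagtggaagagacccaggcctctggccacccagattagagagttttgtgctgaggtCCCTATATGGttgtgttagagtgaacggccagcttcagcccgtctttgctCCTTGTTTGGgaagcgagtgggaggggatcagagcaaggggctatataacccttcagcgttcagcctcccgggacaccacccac
Mylk: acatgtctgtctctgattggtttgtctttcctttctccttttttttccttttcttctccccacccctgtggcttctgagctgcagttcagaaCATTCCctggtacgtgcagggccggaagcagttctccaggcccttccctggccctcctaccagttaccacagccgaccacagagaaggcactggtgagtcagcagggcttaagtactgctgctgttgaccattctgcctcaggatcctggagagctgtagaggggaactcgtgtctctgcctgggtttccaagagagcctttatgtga
Lmod1: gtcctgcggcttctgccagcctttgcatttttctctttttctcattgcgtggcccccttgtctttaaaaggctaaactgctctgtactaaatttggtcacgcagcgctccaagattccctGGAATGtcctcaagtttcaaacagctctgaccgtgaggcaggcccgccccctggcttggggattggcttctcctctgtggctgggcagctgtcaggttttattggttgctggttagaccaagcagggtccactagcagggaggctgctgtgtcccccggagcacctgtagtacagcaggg
The *Acta2* window is chr19:34255324-34255623 on the minus strand. It lies largely inside the annotated gene, so its start is not the first one annotated. Its near-CArG boxes begin 84 and 34 bases before the start that the window was built on, with an M-CAT core 146 bases before it. The *Mylk* window is chr16:34784700-34784999, inside the annotated gene and thus at a start other than its first, and the *Lmod1* window is chr1:135324563-135324862. The windows of *Des* and *Cnn1* held none of these matches. Among 32851 windows of the same length, 1.63% held a CArG box, 9.98% one with at most 1 core base off and 14.7% the M-CAT core. The TATA box letters TATAAA were searched for as well, on both strands, and stood in none of the 5 windows and in 13.6% of the 32851. A match describes the letters only, and the lack of one says only that these letters are not in the window.

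The most abundant message per length was *Acta2*, smooth muscle alpha-actin. In WT testes at day 20 it stood at 213 ± 52.8 CPM per kb of exon (SD, n = 4). *Tagln*, the actin-binding protein transgelin, followed at 40.9 ± 14.8, *Myh11*, the smooth muscle myosin heavy chain, at 30.5 ± 7.72 and *Mylk*, the myosin light chain kinase, at 21.9 ± 4.88 CPM per kb. *Tagln* and *Myh11* differed by less than the SD of *Tagln* and by more than that of *Myh11*, and *Mylk* lay further below *Myh11* than 1 SD of either. *Actg2*, the gamma-actin of enteric smooth muscle, was at 8.07 ± 3.91, *Cnn1*, the thin filament regulator calponin, at 5.91 ± 3.45, *Des*, the intermediate filament desmin, at 4.91 ± 1.93 and *Lmod1*, the actin nucleator leiomodin, at 3.85 ± 1.04 CPM per kb. Each of these low genes differed from its neighbour by less than the larger SD of the pair, and all were below *Mylk*. By day 26 the order in WT had changed at 1 place. *Actg2* had moved from the fifth to the second rank with 37.3 ± 1.86 CPM per kb (n = 2), between *Acta2* at 96.8 ± 17.9 and *Tagln* at 18.2 ± 0.386.

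Between day 20 and day 26 the smooth muscle genes took opposite courses. In WT testes *Acta2*, *Myh11*, *Tagln*, *Mylk* and *Lmod1* fell, while *Actg2* rose 4.57-fold. In KO testes the same 5 genes and *Des* fell, and *Actg2* rose 6.48-fold. Thus 6 of 8 genes were called in WT (5 lower and 1 higher, edgeR's quasi-likelihood test at an adjusted p under 0.05) where 42.5% of all 17170 genes tested were called, 18.1% lower and 24.4% higher. In KO 7 of 8 were called (6 lower and 1 higher), against 52.2% of all genes, 24.9% lower and 27.2% higher. The median log2 fold change of the 8 genes was -0.67 in WT and -0.87 in KO, where the medians over all genes tested were -0.044 and -0.069. Over these days in WT, Sertoli markers fell from 2733 to 1600 CPM and elongating spermatid markers rose from 368 to 3557 CPM. In RNA from whole tissue, fewer smooth muscle cells, less of each message per cell and more RNA from other cells cannot be told apart.

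*Acta2* gives the clearest decline. The 4 WT libraries of day 20 held 349, 568, 565 and 385 CPM, those of day 22 held 293, 364, 387 and 403, those of day 24 held 281 and 310, and those of day 26 held 240 and 185. The KO libraries held 392, 402, 356 and 294 CPM at day 20, 277, 212, 306 and 142 at day 22, 236 and 242 at day 24, and 171 and 158 at day 26. In both genotypes every library of day 26 lay below every library of day 20. How many of all genes separate in this way, with 2 libraries against 4, was not counted. The log2 fold change from day 20 to day 26 was -1.13 ± 0.253 (SE) in WT (adjusted p = 0.0011, edgeR) and -1.13 ± 0.253 in KO (adjusted p = 0.000965, edgeR).

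*Myh11* and *Tagln* followed. *Myh11* was at 168, 261, 298 and 201 CPM in WT at day 20 and at 128 and 119 at day 26, a log2 fold change of -0.91 ± 0.24 (adjusted p = 0.00457, edgeR). *Tagln* was at 53.2, 98.4, 114 and 60.0 CPM in WT at day 20 and at 36.7 and 35.6 at day 26, a log2 fold change of -1.17 ± 0.324 (adjusted p = 0.00644, edgeR). For both genes the WT libraries of the first and last day did not overlap, a separation whose share over all genes was not counted. In KO, *Myh11* went from 139, 154, 177 and 145 to 91.9 and 69.3 CPM and *Tagln* from 59.4, 70.4, 54.7 and 41.7 to 31.0 and 25.1 CPM, again without overlap. Their log2 fold changes in KO were -0.93 ± 0.241 and -1.01 ± 0.324.

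*Mylk*, whose product switches the motor on, fell as well. Its WT libraries held 233, 201, 326 and 225 CPM at day 20 and 171 and 150 at day 26 (log2 fold change -0.62 ± 0.173, adjusted p = 0.00681, edgeR), and its KO libraries 162, 202, 218 and 200 and then 133 and 129 (-0.58 ± 0.173, adjusted p = 0.00857, edgeR). *Lmod1*, at 10.7 to 19.5 CPM in WT at day 20, was at 10.8 and 7.75 at day 26 (-0.71 ± 0.25, adjusted p = 0.0262, edgeR), so that the groups overlapped in WT, and at 7.85 and 6.83 in KO against 12.2 to 14.6 before. *Des* and *Cnn1* were not called in WT, with log2 fold changes of -0.33 ± 0.282 and -0.42 ± 0.332, and *Cnn1* was not called in KO either, at -0.54 ± 0.339. *Des* fell in KO from between 16.0 and 19.1 CPM to 9.50 and 9.41 CPM (-0.89 ± 0.292, adjusted p = 0.0148, edgeR).

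**Figure D1:**
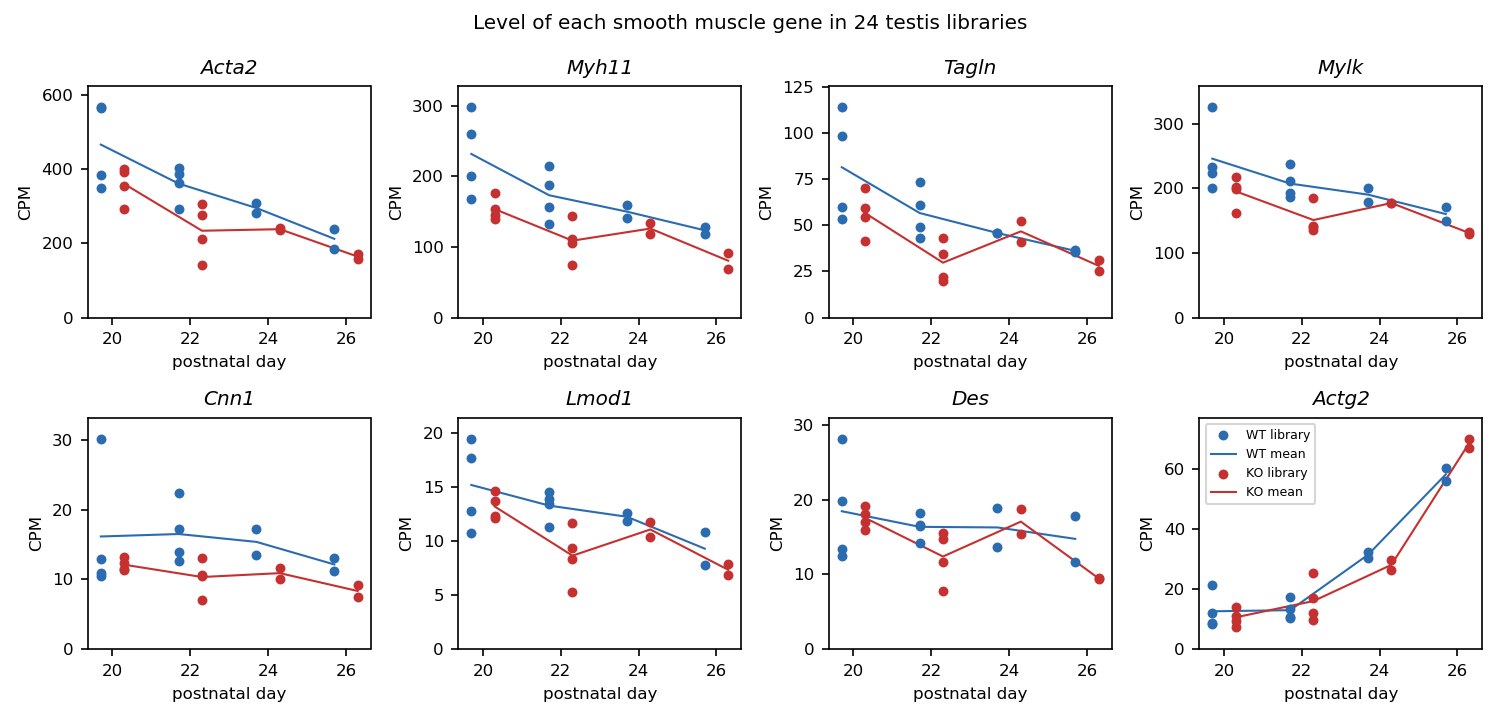
Level of the 8 genes in CPM (y axis, from 0, own scale per gene) against day after birth, with 1 point per library and a line through the group means, WT in blue and KO in red (points are set 0.3 days left and right of the day). *Actg2* climbs to 56.0 to 70.0 CPM at day 26 while *Acta2* ends between 158 and 240 CPM, below all its libraries of day 20.

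Which of these declines were called depended on few libraries. Without WT_d26_2 only *Acta2* and *Actg2* were called in WT and without KO_d26_2 only *Acta2* and *Actg2* in KO, and without all 7 libraries with epididymal RNA the calls came to 1 in WT (*Actg2*) and 2 in KO (*Acta2* and *Actg2*), with *Acta2* at -0.85 in WT and -1.04 in KO and with *Des* and *Cnn1* in WT at 0.23 and 0.18. The shares of all genes called also dropped, to 27% in WT without WT_d26_2, to 33.4% in KO without KO_d26_2, and to 20.9% in WT and 25.9% in KO without the 7 libraries. The rise of *Actg2* was called in each of the 24 fits that left out 1 library, with log2 fold changes of 2.0 to 2.56 in WT and 2.56 to 2.87 in KO.

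*Actg2* was at 8.57, 8.42, 21.4 and 11.9 CPM in WT at day 20 and at 10.7, 10.4, 13.3 and 17.3 CPM at day 22. It then stood at 32.3 and 30.4 CPM at day 24 and at 60.1 and 56.0 CPM at day 26. In KO it was at 7.47, 9.48, 11.1 and 14.2 CPM, then at 11.9, 25.4, 16.9 and 9.72, then at 29.6 and 26.3, and at last at 66.9 and 70.0 CPM. Days 20 and 22 overlapped in both genotypes, and days 24 and 26 lay above them and apart from each other. The share of all genes with such a separation was not counted. The change from day 20 to day 26 was 2.19 ± 0.334 on the log2 scale in WT (adjusted p = 2.08e-05, edgeR) and 2.7 ± 0.335 in KO (adjusted p = 3.74e-06, edgeR).

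**Figure D2:**
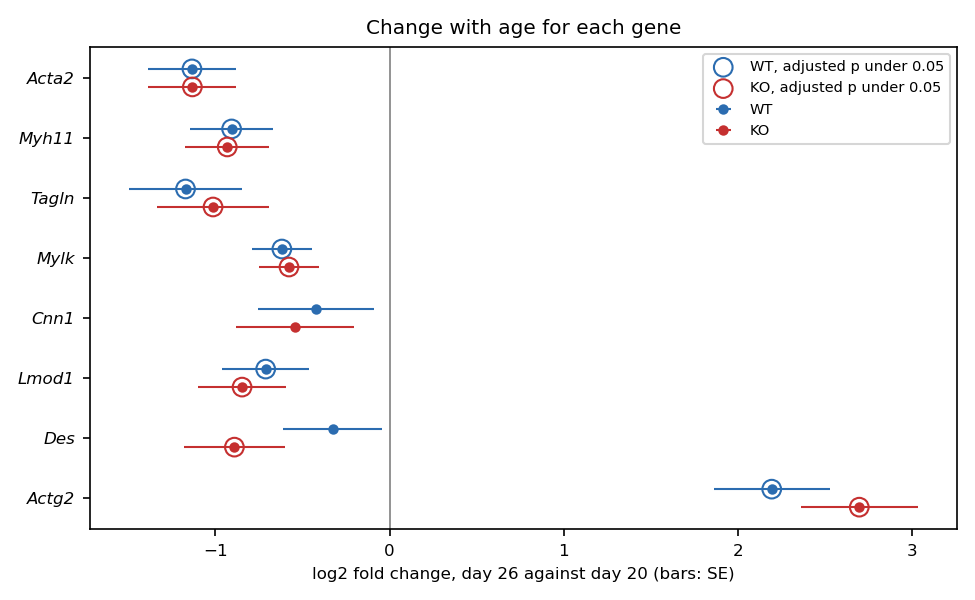
Log2 fold change of day 26 against day 20 (x axis) for each gene, WT in blue and KO in red, with bars of 1 SE and rings around genes called at an adjusted p under 0.05. *Actg2* stands at 2.19 and 2.7, and the other 7 genes lie below 0 in both genotypes.

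Both smooth muscle actins are highly alike, so shared reads were looked for. Their coding sequences were 84.2% identical after alignment. The longest run of bases they share was 29, shorter than the 75-base reads, and neither shared a run of 75 bases with the skeletal, cardiac or cytoplasmic actins. The first codons are shown to let the differences be seen, with aligned bases that differ, or have no partner, in capitals.
Acta2: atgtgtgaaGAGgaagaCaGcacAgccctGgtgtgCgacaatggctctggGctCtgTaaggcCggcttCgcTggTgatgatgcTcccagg
Actg2: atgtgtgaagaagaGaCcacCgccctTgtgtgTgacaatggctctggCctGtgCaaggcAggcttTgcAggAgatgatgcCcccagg
The aligned stretch holds 16 such positions, of which 3 are bases of *Acta2* with no partner in *Actg2*.

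The course of *Actg2* over the 24 libraries was also unlike that of the other genes by correlation, which is given as a description since the libraries share days. Levels of any pair among the other 7 genes correlated at r = 0.70 to 0.93, and levels of *Actg2* with each of them at r = -0.60 to -0.087. *Actg2* correlated at r = 0.91 with the summed level of elongating spermatid markers, 55.8% of which was *Odf2*, a protein of the sperm tail, and at r = 0.85 with round spermatid markers. *Acta2* correlated with these lists at r = -0.81 and -0.81. Once the group means were removed, however, *Actg2* varied in the same direction as the others. Its deviations from group means correlated at r = 0.63 with the mean of the other 7 and with single genes at 0.19 (*Tagln*) to 0.76 (*Cnn1*). The 10 genes most like *Actg2* by level, a list drawn up after its course was seen, were *Samd4*, *Fat3*, *Sh3kbp1*, *Clmn*, *Clip1*, *Klf5*, *Lats2*, *Akap1*, *Dpysl3* and *Coro2a*, at r = 0.96 each, of which 5 were also among the 10 by Spearman's rho. None of them belongs to a list used here.

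Over the mean of the 4 days, 3 of the 8 genes fell in KO against WT, *Myh11* to 0.69 of WT, *Acta2* to 0.75 and *Mylk* to 0.81. Of all genes tested 7.08% were called, 3.56% lower and 3.52% higher. The median log2 fold change of the 8 genes was -0.37 against 0.005 over all genes, and 7 of 8 values were negative against 49.0% of all. *Myh11* had the lowest adjusted p of the 8, with a log2 fold change of -0.53 ± 0.116 (adjusted p = 0.0122, edgeR). *Acta2* was at -0.42 ± 0.12 (adjusted p = 0.0397, edgeR) and *Mylk* at -0.30 ± 0.0845 (adjusted p = 0.0392, edgeR).

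The other 5 of the 8 genes did not pass the test over the mean of days. *Cnn1* was at -0.54 ± 0.165 (adjusted p = 0.0516), *Tagln* at -0.45 ± 0.155 (0.081), *Lmod1* at -0.33 ± 0.122 (0.102) and *Des* at -0.26 ± 0.14 (0.271, all by edgeR). *Actg2* was at 0.027 ± 0.174 (adjusted p = 0.955, edgeR), the 1 value above 0.

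The 3 calls rest on small differences. Without WT_d24_2 or without KO_d26_2 none of the 8 genes was called, where 1.73% and 2.04% of all genes were. *Myh11* was the 1 gene called without any 1 of WT_d22_2, WT_d22_3, WT_d22_4, WT_d24_1, WT_d26_1, WT_d26_2, KO_d20_3, KO_d20_4, KO_d22_2, KO_d24_1, KO_d24_2 and KO_d26_1, and 5 genes were called without WT_d20_1 or without KO_d22_1. Without WT_d20_3 the calls were *Myh11* and *Cnn1*, and without KO_d20_1 *Acta2* and *Myh11*. Without the 7 libraries with epididymal RNA none of the 8 was called (0.344% of all genes were), with *Acta2* at -0.41, *Myh11* at -0.41 and *Mylk* at -0.21 and adjusted p-values of 0.45, 0.391 and 0.506 by edgeR.

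**Figure D3:**
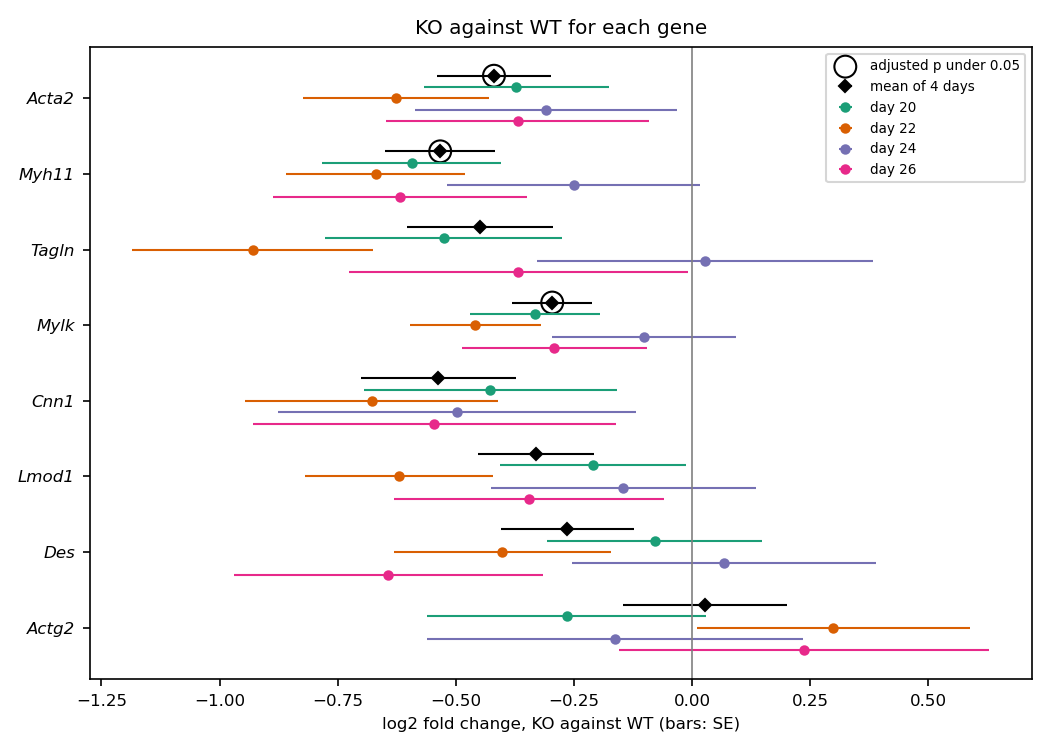
Log2 fold change of KO against WT (x axis) for each gene over the mean of 4 days (black diamonds) and on each day (coloured points), with bars of 1 SE and rings around the genes called over the mean of days. The called genes are *Acta2* at -0.42, *Myh11* at -0.53 and *Mylk* at -0.30, and the values of *Actg2* scatter around 0.

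On single days none of the 8 genes was called by edgeR. At day 20 all 8 were lower in KO, 3 at an unadjusted p under 0.05 (as were 12.5% of all genes), where 3.34% of all genes were called, 0.361% lower and 2.98% higher, and DESeq2 called *Myh11* and 4.16% of all 21430 genes it tested. *Myh11* was there at 168, 261, 298 and 201 CPM in WT and at 139, 154, 177 and 145 in KO (log2 fold change -0.59 ± 0.189, adjusted p = 0.105, edgeR). The groups overlapped through WT_d20_1 and KO_d20_3. Values of day 20 leaned on WT_d20_3, without which *Des*, *Cnn1* and *Actg2* stood at 0.21, 0.084 and 0.14 in place of -0.079, -0.43 and -0.27.

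Day 22 showed the largest median difference of the 4 days, -0.62 over the 8 genes. *Tagln* was at 42.9, 49.2, 61.1 and 73.3 CPM in WT and at 42.8, 22.1, 34.3 and 19.7 in KO, a log2 fold change of -0.93 ± 0.254 (adjusted p = 0.0549, edgeR). *Mylk* was at 187, 193, 212 and 238 CPM in WT and at 142, 141, 185 and 136 in KO (-0.46 ± 0.138, adjusted p = 0.081, edgeR). For both genes the highest KO library lay just under the lowest WT library, and the genotypes did not overlap in 8.09% of all genes (4.45% lower and 3.64% higher in KO). *Myh11* was at 133, 157, 188 and 215 CPM in WT and at 105, 112, 144 and 74.5 in KO (-0.67 ± 0.189, adjusted p = 0.0627, edgeR), with KO_d22_3 inside the WT range. Of the 8 genes 6 were at an unadjusted p under 0.05 (as were 14.6% of all), none was called where 2.51% of all genes were (1.25% lower and 1.26% higher), and DESeq2 called *Myh11*, *Tagln* and *Mylk* and 3.44% of all genes.

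The count at day 22 changed with single libraries. It was 4 (*Myh11*, *Tagln*, *Cnn1* and *Mylk*) without WT_d20_3 (2.74% of all genes), 3 (*Myh11*, *Mylk* and *Lmod1*) without KO_d22_3 (2% of all), and 1 without WT_d20_1, KO_d20_2, KO_d20_4 or KO_d22_1 (*Tagln*) or without WT_d20_2 (*Mylk*), fits in which 2.33% to 5% of all genes were called. KO_d22_4 was the lowest KO library of that day in all 8 genes, and without it the log2 fold change of *Tagln* was -0.78 and that of *Myh11* was -0.53.

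At days 24 and 26, with 2 libraries per genotype, none of the 8 genes was called, where 0.0874% (0.0699% lower and 0.0175% higher) and 0.0466% (all lower) of all genes were. No gene at day 24 and 1 at day 26 (*Myh11*) was at an unadjusted p under 0.05, and DESeq2 called none on either day. At day 26 the KO libraries were at 91.9 and 69.3 CPM for *Myh11* against 128 and 119 in WT (-0.62 ± 0.269), and at 9.50 and 9.41 CPM for *Des* against 17.8 and 11.6 (-0.64 ± 0.327). The genotypes did not overlap at day 26 in 7 of the 8 genes, the exception being *Lmod1*, and 6 of these were lower in KO and *Actg2* was higher. With 2 libraries against 2, the same held for 59% of all genes, 31.1% lower and 27.8% higher.

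Whether the genotype difference itself changed between day 20 and day 26 was tested as an interaction. None of the 8 genes was called and neither was any of the 17170 genes by edgeR, with 0 of the 8 and 1857 of all genes at an unadjusted p under 0.05, while DESeq2 called 211 genes and 0 of the 8. The estimates for the 8 genes ran from -0.56 ± 0.398 for *Des* to 0.50 ± 0.49 for *Actg2*. For *Acta2* the estimate was 0.0025 ± 0.341. The comparisons of age within WT and of genotype at days 20 and 26 share libraries, so their values stand side by side and are not independent.

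Summed over the 8 genes, the level in WT went from 1089 ± 250 CPM at day 20 (n = 4) to 858 ± 126, 757 ± 53.2 and 627 ± 72 CPM at day 26 (n = 2). In KO it went from 820 ± 65.9 to 572 ± 136, 656 ± 1.48 and 498 ± 31.4 CPM. The ratio of KO to WT was 0.753, 0.666, 0.866 and 0.794 on the 4 days, and the ratio of day 26 to day 20 was 0.576 in WT and 0.607 in KO.

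To set the 8 genes against another somatic cell of the tubule, the sum was also divided by 16 marker genes of Sertoli cells, of which *Clu*, a secreted chaperone, gave 49.1% of the list's level. The Sertoli list fell from 2733 ± 335 to 1600 ± 143 CPM in WT and from 2280 ± 100 to 1729 ± 22.1 CPM in KO between days 20 and 26. Per 1000 CPM of Sertoli markers, the 8 genes stood at 400 ± 88.1, 429 ± 56, 417 ± 49.8 and 391 ± 10 CPM in WT on the 4 days. In KO they stood at 361 ± 41.9, 263 ± 80.4, 352 ± 11 and 288 ± 14.5 CPM. The WT and KO libraries overlapped on this scale at day 20 and were apart on days 22, 24 and 26.

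When the libraries were scaled on the Sertoli genes, the median change of all genes from day 20 to day 26 moved to 0.72 in WT and 0.33 in KO. *Actg2* was then the 1 of 8 genes called in WT, and *Acta2* and *Actg2* were called in KO, with *Acta2* at -0.39 in WT. On that scale 58.9% of all genes were called in WT, 58.6% of all as higher, and 41.6% in KO, 37.6% of all as higher. In WT *Des*, *Cnn1*, *Mylk* and *Lmod1* had values above 0 on that scale (0.46, 0.40, 0.16 and 0.066), each below the median of all genes. For KO against WT over the mean of days the Sertoli list itself had a median of -0.025 with 0 of 16 genes called by edgeR, and on its scale *Myh11* and *Mylk* were called and *Acta2* was not (-0.42, adjusted p = 0.0941, edgeR), where 4.62% of all genes were called.

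**Figure D4:**
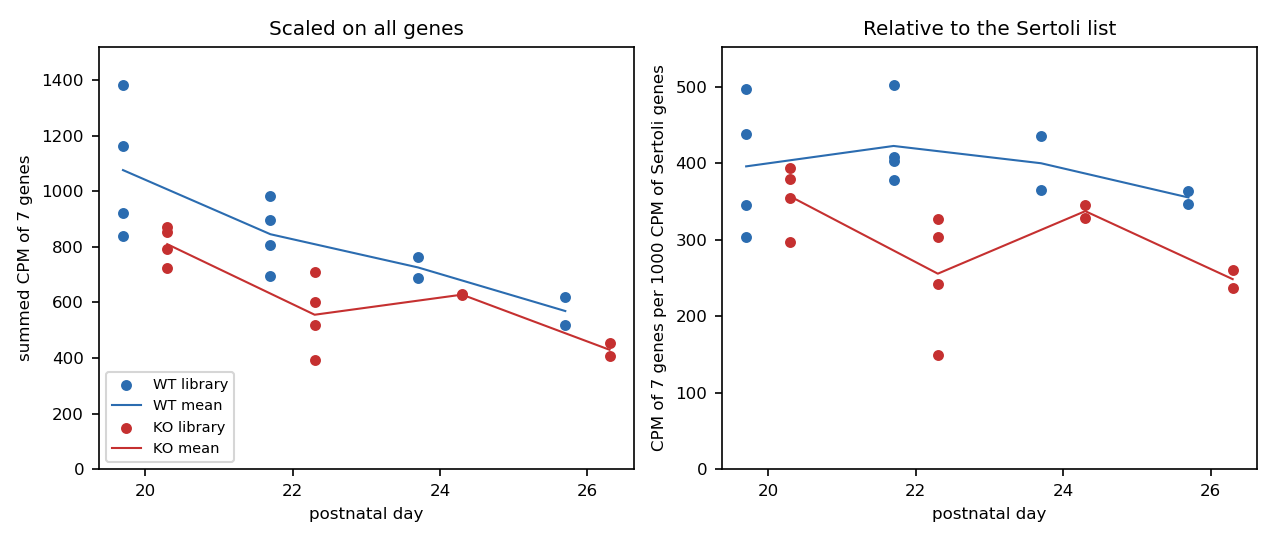
Summed level of the 7 genes other than *Actg2* by day after birth, with 1 point per library and lines through the group means (points are set 0.3 days left and right of the day). On the left in CPM, the WT mean falls from 1076 to 569, and on the right, per 1000 CPM of Sertoli markers, it goes from 396 to 355 while the KO mean goes from 356 to 248.

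The other genes of the contractile apparatus were counted next. Of 23 genes of the thin filament and its anchorage, 8 fell in KO over the mean of days and none rose, with a median of -0.37, where 3.56% of all genes fell and 3.52% rose. *Tagln2*, a transgelin found in many cell types, was at -0.61 ± 0.107, *Cald1*, the thin filament regulator caldesmon, at -0.48 ± 0.11, *Flna*, the actin cross-linker filamin A, at -0.46 ± 0.0982 and *Cnn3*, a calponin of non-muscle cells, at -0.44 ± 0.0869. From day 20 to day 26 in WT 7 of the 23 fell and 1 rose, where 18.1% of all genes fell and 24.4% rose. *Cnn3* changed by -1.09 ± 0.181 and *Vcl*, vinculin of the adhesion plaque, by -0.80 ± 0.128, and *Tns1*, the adhesion protein tensin, rose by 0.88 ± 0.255.

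Of 21 genes that control contraction, 3 fell in KO over the mean of days and none rose (median -0.14), against 3.56% and 3.52% of all genes. They were *Cacna1c*, the pore of the L-type calcium channel (-0.35 ± 0.0806), *Mrvi1*, a target of cGMP kinase (-0.46 ± 0.124) and *Ppp1r12b*, a subunit of myosin phosphatase (-0.23 ± 0.0648). With age in WT 10 fell and 1 rose, against 18.1% and 24.4% of all genes. *Cacna1c* went from 26.4 ± 1.87 to 11.9 ± 1.15 CPM (-1.14 ± 0.168), and *Gucy1b3*, a subunit of the nitric oxide receptor guanylate cyclase, from 7.33 ± 2.63 to 3.68 ± 0.126 CPM. *Pln*, phospholamban, the inhibitor of the calcium pump, rose from 0.337 ± 0.204 to 16.5 ± 2.44 CPM.

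Of 16 receptors and ligands, 2 fell and 1 rose in KO over the mean of days (median -0.35), where 7.08% of all genes were called. The endothelin receptor *Ednra* was at -0.44 ± 0.0982 and the endothelin *Edn3* at -0.84 ± 0.227, while the angiotensin receptor *Agtr1a* rose by 0.56 ± 0.112. On the first and last day *Agtr1a* was at 5.86 ± 1.91 and 14.8 ± 0.179 CPM in WT and at 9.95 ± 1.08 and 29.3 ± 5.43 CPM in KO. With age in WT, *Ednra* (-0.95 ± 0.203) and *Edn1* (-0.91 ± 0.345) fell, and *Oxtr*, the oxytocin receptor, *Adra1d*, an alpha-adrenergic receptor, and *Agtr1a* rose, 5 of 16 genes where 42.5% of all were called. *Oxtr* went from 7.81 ± 0.591 to 22.0 ± 11.1 CPM in WT, where the KO means were 11.5 ± 4.0 and 10.6 ± 1.71 CPM, and *Adra1d* from 0.0945 ± 0.0669 to 1.49 ± 0.591 CPM, where the level at day 20 lies under the level that 3 counts give at this depth.

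Of 14 transcription factors of smooth muscle tested, *Tead1*, the factor of the M-CAT element, was the 1 gene called in KO over the mean of days, at -0.21 ± 0.0627 (list median -0.082), where 7.08% of all genes were called. With age in WT 8 fell and 3 rose, where 18.1% of all genes fell and 24.4% rose. *Fhl2*, a LIM co-factor of serum response factor signalling, fell by 0.99 ± 0.336 and *Elk1*, a partner of serum response factor, by 0.96 ± 0.153. *Klf4*, known as a repressor of smooth muscle genes and also expressed in spermatids, rose from 20.2 ± 9.85 to 128 ± 6.48 CPM, and *Nr4a1*, an immediate early factor, from 6.78 ± 2.25 to 36.6 ± 18.8 CPM. The third to rise was *Mkl1*, a myocardin family co-activator (0.75), and myocardin itself, *Myocd*, was among the 8 that fell (-0.84), both named here after their values were seen.

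In the lists of cells that may carry these messages, every gene called in KO over the mean of days was lower, where 3.56% of all genes fell and 3.52% rose. Of 16 peritubular genes that are not contractile 6 fell (median -0.39), among them the ligand *Wnt5a* at -0.55 ± 0.0936, the platelet-derived growth factor receptor *Pdgfrb* at -0.56 ± 0.138 and *Nr2f2*, a nuclear receptor of mesenchyme, at -0.38 ± 0.102. Of 12 vascular mural genes tested 7 fell (median -0.47), with *Notch3* at -0.66 ± 0.119, the potassium channel subunit *Abcc9* at -0.56 ± 0.103, *Ebf1* at -0.44 ± 0.113 and *Mcam* at -0.36 ± 0.0727. Of 10 endothelial genes 3 fell (*Emcn*, *Pecam1* and *Cdh5*, list median -0.37) and of 8 interstitial fibroblast genes 2 (*Dpt* and *Cd34*, list median -0.57). The fibroblast list shares *Dcn*, *Lum* and *Pdgfra* with the peritubular list.

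Other testis lists were counted for comparison. None of 9 macrophage genes was called in KO over the mean of days by edgeR (median 0.018), and of 9 Leydig genes 1, *Insl3*, rose (median 0.38). Of 7 genes of mesothelium and capsule none was called (median -0.16), where 7.08% of all genes were. By day the median of that list was -0.30, -1.39, -0.21 and 1.78. Of 9 round spermatid genes 5 and of 8 elongating spermatid genes 7 were higher in KO (medians 1.23 and 2.12). By day the round spermatid median was 3.29, 1.20, 0.011 and 0.15, and the elongating spermatid median 3.34, 3.12, 1.42 and 0.31. With age in WT, 8 of 16 peritubular genes fell, such as *Tcf21* (-0.98 ± 0.261) and *Gdnf*, a growth factor for spermatogonia (-0.93 ± 0.299), and of 12 mural genes 1 fell (*Mcam*, -1.05 ± 0.151) and 1 rose (*Ndufa4l2*, 1.51 ± 0.307), where 18.1% of all genes fell and 24.4% rose. With age in KO, where 24.9% of all genes fell and 27.2% rose, 12 of 16 peritubular genes fell and 1 rose, 8 of 12 mural genes fell and 1 rose, 12 of 23 thin filament genes fell, 13 of 21 genes that control contraction fell and 1 rose, 6 of 16 receptors and ligands fell and 2 rose, and 9 of 14 transcription factors fell and 3 rose. Whether the counts differ between WT and KO was not tested. The summed mural level was 159 ± 17.8 CPM in WT and 134 ± 11.8 in KO at day 20, and 112 ± 21.1 and 78.1 ± 2.52 at day 26. What share of the 8 genes' difference comes from peritubular and what from vascular cells was not tested.

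Without the 7 libraries with epididymal RNA, no gene of these lists was called in KO over the mean of days by edgeR, where 0.344% of all genes were. The list medians were then -0.31 for the thin filament, -0.38 for peritubular and -0.52 for mural genes, and 8 of 23, 8 of 16 and 8 of 13 of their genes were at an unadjusted p under 0.05, as were 10.3% of all genes. With age in WT, *Cnn3* and *Vcl* still fell and *Tns1* rose among thin filament genes, *Cacna1c* and *Ppp1r12a* fell and *Pln* rose among those that control contraction, *Oxtr*, *Adra1d* and *Agtr1a* rose, and none of the 16 peritubular genes was called by edgeR (2 were at an unadjusted p under 0.05), where 20.9% of all genes were. Of the transcription factors *Elk1* and *Mef2a* still fell and *Klf4* rose with age in WT, and *Fhl2*, *Nr4a1*, *Mkl1* and *Myocd* were no longer called, nor were *Ednra*, *Edn1* and *Gucy1b3*. Of 13 mural genes *Mcam* fell and *Ndufa4l2* rose, as before. With age in KO, the counts without these libraries were 7 lower and 1 higher of 16 peritubular genes, 4 and 1 of 13 mural genes, 5 and 0 of 23 thin filament genes, 5 and 1 of 21 genes that control contraction, 3 and 2 of 14 receptors and ligands, and 4 and 2 of 14 transcription factors, where 7.13% of all genes fell and 18.8% rose.

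Within a group, the genes tended to go up and down together from library to library. Deviations from the group mean of log2 level correlated at r = 0.28 to 0.87 for the 21 pairs among the 7 genes other than *Actg2*, over 24 libraries. The closest pair was *Acta2* and *Tagln* at 0.87, and *Des* with *Cnn1* followed at 0.85. The deviations of the summed level of these 7 genes correlated with those of summed lists at r = 0.85 for thin filament genes, 0.85 for peritubular, 0.72 for mural, 0.72 for endothelial, 0.68 for fibroblast and 0.65 for macrophage genes and for smooth muscle transcription factors. Values were lower for receptors and ligands (0.48), Leydig genes (0.41) and genes that control contraction (0.16), and were -0.058 for Sertoli genes and -0.55 for pachytene genes. The genes of 1 library share its depth and dissection, and these values are descriptions.

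The libraries at the ends show the pattern. In KO_d22_4 the summed level was 402 CPM, where KO_d22_1, KO_d22_2 and KO_d22_3 held 613, 544 and 728 CPM. In the same library endothelial genes stood at 40.0 CPM against 62.4 to 73.7 and macrophage genes at 148 against 259 to 362, while Sertoli genes were at 2622 against 1838 to 2341. In WT_d20_3, with 283 CPM of epididymal genes, *Cnn1* was at 30.2 CPM against 10.5, 11 and 13.0 in the other WT libraries of that day, *Des* at 28.1 against 12.4 to 19.8 and *Actg2* at 21.4 against 8.42 to 11.9. That duct has its own smooth muscle, and the part of that RNA in these values was not tested. Deviations of the epididymal list correlated at r = 0.51 with those of the 7 genes other than *Actg2*.

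**Figure D5:**
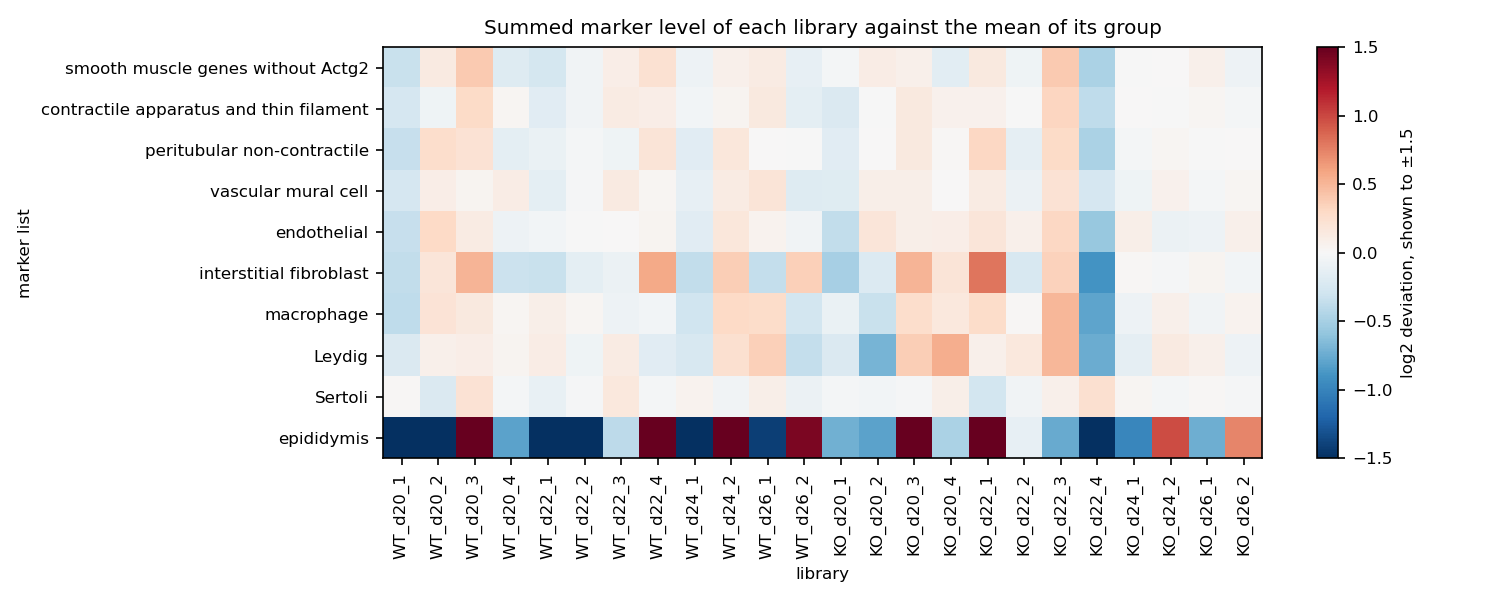
Log2 deviation of the summed level of each marker list (rows) from the mean of its group, for each of the 24 libraries (columns), in red above and in blue below the group mean, with colours ending at 1.5. The smooth muscle row and those of peritubular, mural and endothelial markers share their blue column at KO_d22_4 and red column at KO_d22_3, and the Sertoli row is above its group mean in both.

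The genes most like the mean of the 8 genes by level were *Tgfbr2*, the type II receptor of transforming growth factor beta (r = 0.93), *Creb5* (0.92), *Bgn*, *Flnc* and *Tpm1* (0.90 each), *Pam* (0.90), and *Col5a1*, *Serping1*, *Wfikkn2* and *Anxa6* (0.89 each). By deviation from group means they were *Tpm1*, a tropomyosin (0.91), *Lima1*, *Rnase4*, *Antxr1* and *Arsi* (0.91 each), *Tgfbr2* and *Myl9*, the regulatory myosin light chain that *Mylk* acts on (0.90 each), and *Tgfbi*, *Wipf1* and *Ddr2* (0.89 each). *Tgfbr2* and *Tpm1* stand in both lists. Over the 17 libraries without epididymal RNA the same genes correlated at r = 0.87 to 0.94 in either list. *Tgfbr2* went from 27.5 CPM in WT and 25.1 in KO at day 20 to 24.5 and 16.1 CPM at day 26.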

How the data were processed

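Total RNA from testis was depleted of ribosomal RNA, made into strand-specific libraries and sequenced as 75-base pairs. Per the labels and the study's methods, the authors aligned the pairs to mm10 with STAR 2.7.11b and counted them with HTSeq in exons by strand, discarding pairs with several alignments. What the authors deposited are raw counts by gene symbol, not normalized and not pooled, and the version of the gene models is not given in the sources used here. The 5 tally rows were kept out. Pairs outside exons took 45.1% to 58.5% of a table, pairs with several alignments 4.74% to 13.7% and ambiguous pairs 0.132% to 0.229%.

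Libraries were scaled by TMM (the trimmed mean of M values) and tested by the quasi-likelihood test of edgeR 4.0.16 (R 4.3.3, limma 3.58.1) in a robust fit of 8 groups over 24 libraries, so that days with 2 libraries borrow the spread of the others. Genes were kept by filterByExpr at a minimum count of 10, which left 17170. Contrasts were KO against WT on each day and over the unweighted mean of the 4 days, day 26 against day 20 within each genotype, and the difference of the KO effect between these days. Tests were two-sided, adjustment for multiple testing followed Benjamini and Hochberg across the whole table, and a gene is called at an adjusted p under 0.05. The SE was taken from the F statistic. Correlations used log2 CPM with a prior count of 2. Exon lengths came from GENCODE M21. At these depths 3 counts correspond to 0.153 to 0.316 CPM, and such floors cover counting error only. No 2 libraries of a group agreed within sampling noise over 28 pairs. The labels give 4 libraries per genotype at day 20, more than the study's text, and all were used.

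Genes named were the 8 members, *Atad2*, up to 4 called genes of lowest adjusted p in each of 6 lists for the mean of days, the 2 called genes of largest fold in each direction with age in WT, and the 10 genes most like the members, and 1 gene that this rule names is not reported here. The members and lists were chosen with earlier results of these data known. The scripts were tested on simulated data. Alternatives were DESeq2 1.42.0, its size factors in edgeR, no count filter, each day alone, a replicate block, scaling on Sertoli genes, and each library left out in turn. Leaving out the 7 libraries with epididymal RNA was chosen after seeing the data.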

Additional observations from a re-analysis of the deposited data

Results flagged for a closer look

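In 36 groups of 4 values (the 8 genes and their sum on days 20 and 22 in each genotype), 2 held a library far from the other 3 by Dixon's criterion at the 95% level, which chance passes in about 1 of 20 groups. *Cnn1* stood at 30.2 CPM in WT_d20_3, where the other WT libraries of day 20 held 10.5 to 13.0 CPM, and that library also held 283 CPM of epididymal genes. *Mylk* stood at 185 CPM in KO_d22_3, where the other KO libraries of day 22 held 136 to 142 CPM.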

How the results depend on the processing

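Counts of genes called changed with the libraries and settings, those of the 8 genes as follows. With 1 library left out it ranged from 0 to 5 for KO against WT over the mean of days, from 0 to 4 at day 22, from 2 to 6 for age in WT and from 2 to 8 for age in KO, and stayed at 0 on days 20, 24 and 26 and for the interaction. DESeq2 called 1 at day 20 and 3 at day 22, and each day fitted alone gave 1 (*Myh11*) at day 26 and no value for the mean of days. Scaling on Sertoli genes gave 3 at day 22 (*Myh11*, *Mylk* and *Lmod1*, with 2.95% of all genes), 1 for age in WT and 2 for age in KO. Without the 7 libraries with epididymal RNA the counts were 0 for the mean of days, 1 for age in WT and 2 for age in KO. RLE scaling kept the same genes called in every comparison, and with no count filter *Mylk* was lost over the mean of days (adjusted p = 0.0642, edgeR). The summed level at day 26 relative to day 20 was 0.978 in WT and 0.798 in KO on the Sertoli scale, and 0.799 and 0.761 as a mean of log2 levels, in which *Actg2* weighs as much as *Acta2*.

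Same-numbered WT and KO libraries did not vary together, with correlations of deviations from -0.50 to 0.49 over 8 pairs and 3 of 8 matching best with their own number, so the numbers were not taken to pair the samples. With the replicate block the counts were 4 over the mean of days (*Cnn1* added, with 5.23% of all genes), 2 at day 22 (*Myh11* and *Mylk*) and 5 for age in WT (*Lmod1* lost, with 45.2% of all), the interaction of *Acta2* was -0.00982, and 333, 235 and 17 of all genes were called at days 20, 22 and 26.

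Signs turned only in values that were not called, apart from *Mylk* and *Lmod1* with age in WT on the Sertoli scale. With 1 library left out the ranges of values that changed sign were -0.053 to 0.14 for *Actg2* over the mean of days, -0.23 to 0.21 for *Des*, -0.59 to 0.084 for *Cnn1* and -0.44 to 0.14 for *Actg2* at day 20, -0.018 to 0.48 for *Actg2* at day 22, -0.14 to 0.33 for *Des* and -0.16 to 0.20 for *Tagln* at day 24, and -0.62 to 0.051 for *Cnn1* with age in WT. For the interaction they were -0.18 to 0.21 (*Acta2*), -0.22 to 0.18 (*Myh11*), -0.030 to 0.35 (*Tagln*), -0.60 to 0.077 (*Cnn1*), -0.11 to 0.17 (*Mylk*) and -0.35 to 0.13 (*Lmod1*). The interaction of *Myh11* was 0.032 with RLE scaling, 0.030 with DESeq2 and 0.012 with each day alone. Scaling on Sertoli genes gave 0.21 for *Des*, 0.027 for *Actg2* and 0.068 for *Lmod1* at day 20, -0.0092 for *Tagln* at day 24, 0.46 for *Des*, 0.40 for *Cnn1*, 0.16 for *Mylk* and 0.066 for *Lmod1* with age in WT, and -0.35 for *Acta2*, -0.22 for *Tagln* and -0.34 for *Mylk* in the interaction. It moved the median of all genes from 0.0046 to 0.26 at day 20. Without the libraries with epididymal RNA, *Des*, *Cnn1* and *Actg2* at day 20 were at 0.20, 0.072 and 0.13, *Des* and *Cnn1* with age in WT at 0.23 and 0.18, and *Acta2*, *Myh11* and *Mylk* in the interaction at -0.19, 0.0055 and -0.16. The cause was not tested in any of these.

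Counts over all genes moved by over 1.5 times in 60 of the comparisons recomputed. With 1 library left out they ranged from 302 to 1737 over the mean of days, from 151 to 780, 60 to 858, 0 to 24 and 0 to 103 on the 4 days, from 4724 to 7971 and 5829 to 10147 with age in WT and KO and from 0 to 326 in the interaction. DESeq2 called 892, 737, 40 and 159 genes on the 4 days and 211 in the interaction. Each day alone gave 5, 69 and 2104 at days 20, 22 and 26. The Sertoli scale gave 794 over the mean of days, 1553 at day 20, 5 at day 24 and 167 in the interaction. Without the libraries with epididymal RNA 59 genes were called over the mean of days, 7, 103, 1 and 0 on the 4 days, and 3586 and 4442 with age in WT and KO. With Spearman's rho, 3 of the 10 genes most like the members by level and 4 of the 10 by deviation were kept. Days 24 and 26 have 2 libraries per genotype, which limits what they can show.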
